A study of Mus musculus with 24 samples.

Results

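The liver X receptor and retinoid X receptor (LXR/RXR) lipid target genes described here were 9 genes matched by symbol, *Nr1h3*, *Abca1*, *Abcg1*, *Apoe*, *Mylip*, *Srebf1*, *Fasn*, *Scd1* and *Scd2*, of 23420 genes in each table. All 9 were found in the tables of all 4 comparisons and all 9 passed the filter on low values in each. RNA came from whole left lung lobes of mice at postnatal day 2 (P2) and postnatal day 5 (P5). At each age, 3 *Vangl2* f/f; *Sox9* Cre/+ lungs and 3 *Ror2* f/f; *Sox9* Cre/+ lungs were set against their own 3 control lungs, which the labels give as wild type, so that 24 lungs in 8 groups of 3 entered the comparisons. Cre expressed from the *Sox9* locus deletes the floxed gene in the distal lung epithelium, whereas the lobe also holds mesenchyme, vessels and blood cells. *Vangl2* and *Ror2* encode a membrane protein and a receptor tyrosine kinase of the planar cell polarity pathway, and the comparisons ask how their loss from the epithelium alters the transcriptome of the postnatal lung. A level in a whole lobe cannot tell fewer cells of a type from less RNA per cell.

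LXRs are nuclear receptors that bind oxysterols, the oxidized forms of cholesterol, and act on DNA as heterodimers with RXRs. When cells hold excess sterol they raise the genes that export cholesterol onto lipoprotein particles and the genes that make fatty acids. In the lung these pathways are best known from alveolar macrophages, which clear surfactant lipid, and from alveolar type II cells, which synthesize it. *Nr1h3* encodes LXRα itself and is thus a receptor rather than an effector. *Abca1* and *Abcg1* encode transporters that export cholesterol, *Apoe* a lipoprotein that accepts it, and *Mylip* (also called Idol) a ubiquitin ligase that directs lipoprotein receptors to degradation. *Srebf1* encodes the transcription factor SREBP-1, *Fasn* fatty acid synthase, and *Scd1* and *Scd2* the desaturases that make monounsaturated fatty acids.

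In RefSeq (GRCm38.p6) *Nr1h3* lies at chr2:91184061-91202829, *Abca1* at chr4:53030789-53159988, *Abcg1* at chr17:31057694-31117984 and *Apoe* at chr7:19696244-19701310. *Mylip* lies at chr13:45389742-45411940, *Srebf1* at chr11:60199084-60224186, *Fasn* at chr11:120805958-120825166, and *Scd1* and *Scd2* next to each other at chr19:44394450-44407709 and chr19:44293676-44306864.

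The values are normalized counts, which are reads scaled by 1 size factor per lung, set separately for each table of 6 lungs. Fold changes are mutant over control on the log2(normalized count + 1) scale, and adjusted p-values are from limma, with genes counted as passing under 0.05. Depth was 16178031 to 21546673 reads in the 21 lungs whose reads could be recovered, apart from control replicate 1 of the P5 *Ror2* comparison at 13823693 reads, which lists 48.66% of genes at 0 against 22.15% to 26.29% in the other 23 lungs. That lung was treated as missing for genes on chromosomes 5 to 9 and X, among them *Apoe*. The *Vangl2* transcript lay below the controls in every mutant lung of its own comparisons, and was 0.764-fold of the control level at P2 (adjusted p = 0.241) and 0.499-fold at P5 (adjusted p = 0.0604). The *Ror2* transcript overlapped between groups in its own comparisons, at 0.766-fold for P2 (adjusted p = 0.25) and 0.895-fold for P5 (adjusted p = 0.691). In the whole lobe, *Ror2* was thus not clearly lower in the libraries labelled *Ror2* mutant, and each direction given below for these libraries rests on their titles.

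LXR/RXR heterodimers bind DR4 elements, which are 2 hexamers spaced by 4 bases, and 3 of the 9 genes carried closely similar elements just before a transcription start. The RefSeq windows around each start (build GRCm38.p6) were searched on both strands. GGGTTACTNNCGGTCA, a DR4 element, matched 3 of 32851 windows (0.00913%), and these were windows of *Abca1*, *Srebf1* and *Fasn*. The motif was taken from these 3 windows themselves, with N where they differ, so the share is a description and not a test. Its first part, GGGTTACTNNCGG, which overlaps it, matched 6 windows (0.0183%), again including those of *Abca1*, *Fasn* and *Srebf1*, and occurred 2 times in *Srebf1*. The textbook repeat, AGGTCA 2 times with 4 bases between, matched 5 windows (0.0152%) and none of these genes. The 30 bases around the element of *Abca1* and of *Fasn*, and the 250 bases before the *Srebf1* start that hold both of its matches, are shown 5′ to 3′ on the gene's strand, with the matches in capitals, because they are what these 3 genes share in sequence. The element lies on the opposite strand in all 3.
Abca1: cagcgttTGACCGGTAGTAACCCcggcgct
Fasn: gccacgaTGACCGGTAGTAACCCcgcctga
Srebf1: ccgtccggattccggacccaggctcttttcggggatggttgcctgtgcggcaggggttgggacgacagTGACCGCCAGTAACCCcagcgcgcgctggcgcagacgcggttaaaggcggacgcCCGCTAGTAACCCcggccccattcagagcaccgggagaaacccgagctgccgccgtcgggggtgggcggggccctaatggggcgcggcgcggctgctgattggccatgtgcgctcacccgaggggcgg
The *Abca1* stretch is chr4:53159940-53159969 on the minus strand, with its element at chr4:53159947-53159962. The *Srebf1* stretch, chr11:60210472-60210721 on the minus strand, has the full element at chr11:60210638-60210653 and the shorter match at chr11:60210587-60210599. It precedes an internal start of the gene and lies in an intron of longer *Srebf1* transcripts in GENCODE vM21. The *Fasn* stretch is chr11:120824750-120824779 on the minus strand, with its element at chr11:120824757-120824772. All 3 elements lie inside the span of their gene in RefSeq, which holds a start farther upstream, whereas no GENCODE vM21 gene overlaps the *Abca1* or the *Fasn* stretch. The windows of *Nr1h3*, *Apoe* and *Mylip* held none of these letters, and windows were matched for 6 of the 9 genes. Binding was not measured, and a match is a description of sequence only.

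*Apoe*, *Abca1* and *Mylip* had the highest fold changes of the 9 genes in both P2 comparisons. *Apoe* rose in the P2 *Vangl2* mutants by 2.15-fold, the one call among the 36 gene and comparison pairs by limma. Of the 9 genes, 1 of 9 was thus called in the P2 *Vangl2* comparison, where 3.59% of all 17448 genes tested were called, and 4 of 9 had an unadjusted p under 0.05 (22.5% of all genes). The count was 0 of 9 at P5 for *Vangl2* (0.563% of 17410 genes called, and 3 of 9 against 18.8% of all genes at an unadjusted p under 0.05), and 0 of 9 at P5 for *Ror2* (0.18% of 17177 genes called, and 2 of 9 against 18.5% unadjusted). For *Ror2* at P2 it was also 0 of 9, in a comparison where limma called 0% of 17541 genes although 3380 (19.3%) had an unadjusted p under 0.05, of which 4 were among the 9. On reads recovered at P2, edgeR called 1 of 9 for *Vangl2* (641 genes in all, 3.67%) and 0 of 9 for *Ror2* (0 genes in all). DESeq2, which calls more genes throughout, called *Apoe*, *Abca1*, *Mylip* and *Fasn* for *Vangl2* (4 of 9, against 13% of all genes) and *Abca1* and *Mylip* for *Ror2* (2 of 9, against 5.76%).

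Most of the 9 genes lay above 0. The log2 fold change was above 0 in 9 of 9 genes for *Vangl2* at P2 (50.1% of all genes), 7 of 9 at P5 (50.3%), 9 of 9 for *Ror2* at P2 (49.4%) and 8 of 9 at P5 (50.6%). Every mutant lung lay above every control lung in 4 of 9 genes for *Vangl2* at P2 (14.6% of all genes), in 2 of 9 at P5 (13.2%), in 4 of 9 for *Ror2* at P2 (13.4%) and in 2 of 9 at P5 (15.6%). The median log2 fold change of the 9 genes was 0.48, 0.44, 0.30 and 0.11 in that order, and the median of all genes lay between -0.01 and 0.00. Members of one pathway are not independent of each other, and no test was run over the 9 genes together.

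**Figure D1:**
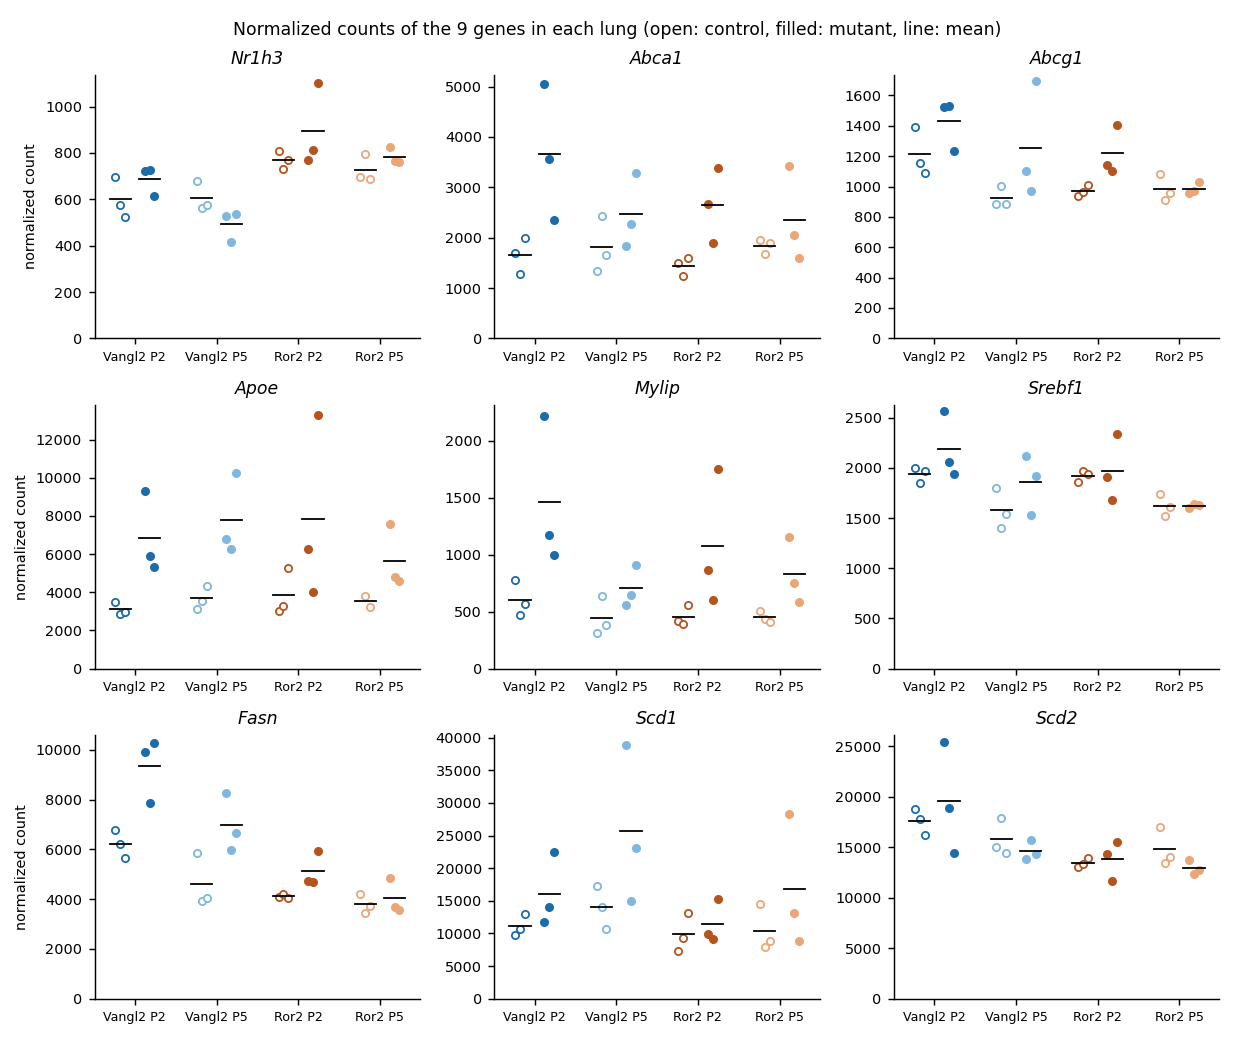
Normalized counts (vertical axes, from 0) of the 9 genes in each of 24 lungs, by comparison along the horizontal axis. Open points are control lungs, filled points mutant lungs and lines group means. For *Apoe* all mutant lungs lie above their controls except in the P2 *Ror2* comparison, whereas *Nr1h3* lies below its controls in the P5 *Vangl2* mutants.

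**Figure D2:**
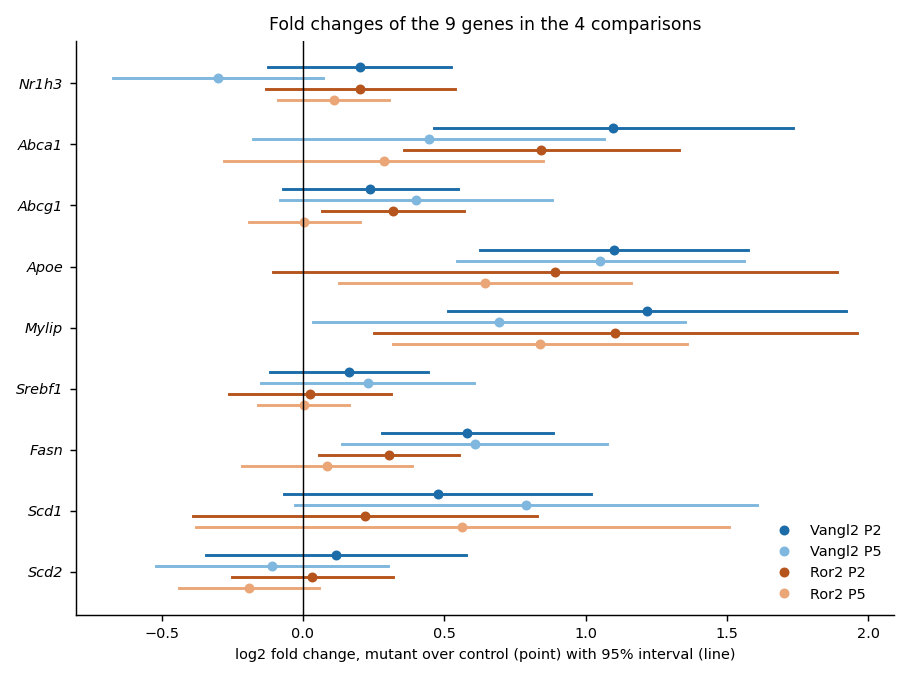
Log2 fold change of each gene, mutant over control (points), with its 95% interval from limma (lines) in the 4 comparisons, given by color. The intervals of *Abca1*, *Fasn*, *Apoe* and *Mylip* at P2 for *Vangl2* lie above 0 before adjustment, and those of *Nr1h3*, *Srebf1* and *Scd2* include 0 in every comparison.

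*Nr1h3* was higher on average in *Vangl2* mutants at P2 and lower at P5, as was the receptor gene *Rxra* (0.18 and -0.25, adjusted p = 0.551 and 0.345). At P2 the *Vangl2* controls held 698, 576 and 526 normalized counts of *Nr1h3* and the mutants 722, 726 and 612, with overlap between groups (log2 fold change 0.20 ± 0.14 SE, adjusted p = 0.436). At P5 the controls held 681, 564 and 573 and the mutants 527, 416 and 537, and the highest mutant lung was under the lowest control (-0.30 ± 0.16 SE, adjusted p = 0.361). The *Vangl2* effect at P5 was thus 0.50 lower than at P2 on the log2 scale (95% interval -0.97 to -0.03), a difference that did not pass adjustment (adjusted p = 0.577). In the *Ror2* comparisons the controls held 807, 729 and 771 at P2 against 771, 813 and 1104 in the mutants, and 698, 795 and 689 at P5 against 825, 767 and 759.6. These groups overlapped at both ages (0.20 and 0.11, adjusted p = 0.445 and 0.508). The other receptor genes, *Nr1h2* (LXRβ), *Rxra*, *Rxrb* and *Rxrg*, passed the test in no comparison. *Nr1h2* lay above its controls in every P2 *Vangl2* mutant lung (0.27, adjusted p = 0.154). *Rxrg* had the largest differences of these genes, at -0.75 for *Vangl2* and -1.65 for *Ror2* at P2 (adjusted p = 0.480 and 0.209). *Rxrb* lay above its controls in every mutant lung at P2, by 0.27 for *Vangl2* and 0.32 for *Ror2* (adjusted p = 0.261 and 0.203).

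*Abca1*, the exporter that loads cholesterol onto lipid-poor apolipoproteins, was higher in all P2 mutant lungs of both genotypes than in any of their controls. For *Vangl2* at P2 the controls held 1689, 1278 and 1996 normalized counts and the mutants 5048, 3568 and 2353. The groups did not overlap, and the 2.14-fold difference missed the threshold (log2 fold change 1.10, 95% interval 0.46 to 1.73, adjusted p = 0.0716). For *Ror2* at P2 the controls held 1498, 1232 and 1597 and the mutants 2661, 1896 and 3376, again without overlap (1.79-fold, log2 fold change 0.84, 95% interval 0.36 to 1.33, adjusted p = 0.203). At P5 the groups overlapped for both genotypes. The P5 *Vangl2* controls held 1344, 2425 and 1664 against 1829, 2272 and 3291 in the mutants (1.36-fold, adjusted p = 0.418), and the P5 *Ror2* controls 1958, 1674 and 1886 against 3430.4, 2047 and 1595 (1.22-fold, adjusted p = 0.548). Only mutant replicate 1 of the P5 *Ror2* lungs stood far above its controls, and without it the log2 fold change was -0.02. Leaving out mutant replicate 3 at P2 for *Vangl2* brought *Abca1* past the threshold (log2 fold change 1.38, adjusted p = 0.0127), as did leaving out mutant replicate 2 for *Ror2* (1.06, adjusted p = 0.0374). Calls over all genes also rose without that *Ror2* lung. For *Vangl2* at P2 they varied widely with the lung left out, as given in the closing section. How many of all genes passed without mutant replicate 3 is not reported here, so the gain of *Abca1* has no share beside it.

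*Abcg1*, which exports cholesterol to mature lipoprotein particles, showed smaller differences than *Abca1* in the same lungs. For *Vangl2* at P2 the controls held 1389, 1158 and 1086 and the mutants 1520.4, 1531 and 1234 (log2 fold change 0.24 ± 0.13 SE, adjusted p = 0.332). The *Ror2* lungs at P2 did not overlap, with 941, 965 and 1007 in controls and 1144, 1105 and 1407 in mutants (0.32 ± 0.11 SE, adjusted p = 0.211). At P5 the *Vangl2* controls held 884, 1005 and 887 and the mutants 1103, 970.4 and 1697, of which replicate 3 alone was far from the controls (0.40 ± 0.21 SE, adjusted p = 0.346). The P5 *Ror2* lungs held 1085, 912 and 958 in controls and 955, 972 and 1032 in mutants, and the 95% interval of that log2 fold change ran from -0.19 to 0.20. The *Ror2* effect on *Abcg1* was 0.31 lower at P5 than at P2 on the log2 scale (95% interval -0.62 to -0.01), which did not pass adjustment (adjusted p = 0.507).

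*Apoe*, the apolipoprotein that accepts exported cholesterol, rose in the P2 *Vangl2* mutants. The controls held 3489, 2847 and 2970.1 normalized counts and the mutants 9326, 5904 and 5299.9, a 2.15-fold rise without overlap (log2 fold change 1.10, 95% interval 0.63 to 1.58, adjusted p = 0.034). The call was lost without control replicate 1, 2 or 3 or mutant replicate 2 (adjusted p = 0.0774, 0.173, 0.149 and 0.0897), and with all 12 P2 lungs in 1 fit (adjusted p = 0.109), while the log2 fold change stayed between 0.86 and 1.26. At P5 the *Vangl2* controls held 3144, 3561 and 4349 and the mutants 6773, 6253 and 10264, again without overlap (2.07-fold, log2 fold change 1.05, 95% interval 0.55 to 1.56, adjusted p = 0.0823). In that comparison same-numbered lungs deviated together, and a fit that blocked on replicate number brought *Apoe* past the threshold (adjusted p = 0.00962), as did *Fasn* (adjusted p = 0.0257), in a fit that called 8.95% of all genes. The 12 lungs of P5 in 1 fit also brought *Apoe* past it (adjusted p = 0.0298).

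In the *Ror2* lungs *Apoe* did not pass at either age. At P2 the controls held 3004, 3287 and 5292 and the mutants 6254, 4018 and 13310.1, which overlapped (1.86-fold, log2 fold change 0.89, 95% interval -0.10 to 1.89, adjusted p = 0.292). Mutant replicate 3 held the highest *Apoe* level of the table, and without it the log2 fold change was 0.42. The highest control, replicate 3, was also the lung with the highest summed neutrophil markers of that table (28367 normalized counts, against 5547 in the lowest control), and without it the value was 1.14 (adjusted p = 0.288). At P5 the 2 usable controls held 3809.6 and 3252 and the mutants 7590.2, 4775 and 4592, without overlap (1.56-fold, log2 fold change 0.64, 95% interval 0.13 to 1.16, adjusted p = 0.204).

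*Mylip*, the ligase that removes lipoprotein receptors from the cell surface, had the largest fold change of the 9 genes in 3 of the 4 comparisons and did not pass the test in any. The P2 *Vangl2* controls held 774, 471 and 564 normalized counts and the mutants 2219, 1173 and 996, without overlap (2.32-fold, log2 fold change 1.22, 95% interval 0.51 to 1.92, adjusted p = 0.0718). The P2 *Ror2* controls held 419.8, 389 and 554 and the mutants 861, 600.2 and 1751, also without overlap (2.15-fold, log2 fold change 1.11, 95% interval 0.25 to 1.96, adjusted p = 0.21). At each genotype a single mutant lung, replicate 1 for *Vangl2* and replicate 3 for *Ror2*, held far more *Mylip* than the other two. Without it the log2 fold changes were 0.87 and 0.68. At P5 the *Ror2* controls held 509, 431 and 405 and the mutants 1153, 752 and 588, without overlap (1.79-fold, log2 fold change 0.84, 95% interval 0.32 to 1.36, adjusted p = 0.146). The P5 *Vangl2* lungs overlapped, with 316, 634 and 386 in controls and 557, 645 and 912 in mutants (1.62-fold, log2 fold change 0.69, adjusted p = 0.243).

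Of the receptors that *Mylip* acts on, *Vldlr* (the VLDL receptor) and *Lrp8* (the ApoE receptor 2) passed the test in no comparison. *Vldlr* differed by 0.09 to 0.18 on the log2 scale in all 4 comparisons, with overlap in each. *Lrp8* overlapped between groups in each comparison as well, at 0.93 for *Vangl2* at P5 (adjusted p = 0.385), where mutant replicate 3 alone was far from the controls. The ligase acts on the receptor proteins, which were not measured.

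*Fasn*, fatty acid synthase, differed in the *Vangl2* mutants at both ages by about the same amount. At P2 the controls held 6766, 6221 and 5643 normalized counts and the mutants 9903, 7849 and 10251, without overlap (1.5-fold, log2 fold change 0.58, 95% interval 0.28 to 0.89, adjusted p = 0.0546). At P5 they held 5859, 3932 and 4031 and 8249.8, 5988 and 6646, again without overlap (1.52-fold, log2 fold change 0.61, adjusted p = 0.176, and 0.0257 with the block given above). The *Ror2* lungs did not overlap at P2 either, with 4068, 4204 and 4062 in controls and 4709.6, 4678 and 5944 in mutants (1.24-fold, log2 fold change 0.30, adjusted p = 0.216). At P5 they overlapped, with 4219.8, 3434 and 3707 against 4858, 3702 and 3563 (0.08, adjusted p = 0.75). The P5 effect on *Fasn* was 0.52 higher for *Vangl2* than for *Ror2* on the log2 scale (95% interval -0.04 to 1.08, adjusted p = 0.998).

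*Srebf1*, whose product drives *Fasn* and the *Scd* genes, overlapped between groups in all 4 comparisons. Its P2 *Vangl2* controls held 1996, 1854 and 1973 and the mutants 2572, 2056 and 1938 (log2 fold change 0.16 ± 0.12 SE), and its P2 *Ror2* controls 1857, 1968 and 1939 against 1906, 1677 and 2340.4 (0.03 ± 0.12 SE). At P5 the *Vangl2* lungs held 1797, 1398 and 1546 against 2122, 1534 and 1921 (0.23 ± 0.16 SE), and the *Ror2* lungs 1736, 1521 and 1609 against 1597, 1645 and 1627 (0.00 ± 0.07 SE). The adjusted p-values ran from 0.46 to 0.986, and the narrowest 95% interval, at P5 for *Ror2*, was -0.16 to 0.16. The tables give 1 value per gene, so the transcripts from the internal start shown above were not separated from the longer ones.

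*Scd1* and *Scd2*, the desaturase genes, passed the test in no comparison. *Scd1* in the P2 *Vangl2* lungs was 9819, 10751 and 13018 in controls and 11769, 13997 and 22463 in mutants (log2 fold change 0.48, adjusted p = 0.275). At P5 it was 17340.5, 14018 and 10717 against 38833, 15014 and 23077 (0.79, adjusted p = 0.28), with mutant replicate 1 at more than any other lung of the table. The *Ror2* lungs held 7277, 9239.7 and 13126 against 9892, 9219 and 15239.8 at P2 (0.22, adjusted p = 0.654), and 14529.5, 7935 and 8808 against 28324, 13144 and 8814 at P5 (0.56, adjusted p = 0.479). All 4 pairs of groups overlapped. *Scd2* was on average slightly higher in the mutants at P2 and lower at P5. Its P2 values were 18782, 17806 and 16256 against 25424, 18889 and 14442 for *Vangl2* (0.12) and 13081, 13298 and 13939.7 against 14364, 11624 and 15558 for *Ror2* (0.03). At P5 they were 15048, 17929 and 14449.7 against 13856, 15696 and 14283 for *Vangl2* (-0.11) and 17018, 13434 and 13992 against 13686, 12331 and 12715 for *Ror2* (-0.19). Its adjusted p-values ran from 0.368 to 0.896, and each of these groups overlapped as well.

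Whether the *Vangl2* and *Ror2* effects differ, or the P2 and P5 effects, was tested in limma fits that joined 2 tables (12 lungs), each mutant group against its own controls. Of the 9 genes, 0 passed in any of the 4 contrasts. For *Vangl2* against *Ror2* the number with an unadjusted p under 0.05 was 0 of 9 at P2 (4.6% of 17137 genes) and 1 of 9 at P5 (4.73% of 16886 genes), which was *Nr1h3* at -0.41 (95% interval -0.80 to -0.02, adjusted p = 0.998). For P5 against P2 it was 1 of 9 in each genotype (8.45% of 17068 genes for *Vangl2* and 9.49% of 16990 genes for *Ror2*), namely the differences of *Nr1h3* and *Abcg1* given above. *Abca1* was lower at P5 than at P2 by 0.65 in the *Vangl2* effect (95% interval -1.58 to 0.28) and by 0.56 in the *Ror2* effect (95% interval -1.35 to 0.23), and both intervals include 0. Among all genes these contrasts called 0, 2 (0.0118%), 0 and 0. The half-widths of the 95% intervals for the 9 genes ran from 0.301 to 1.31, and differences between genotypes or ages within these widths were not detectable.

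The highest mutant lung was often the same lung for several genes. Replicate 3 was the highest P2 *Ror2* mutant lung for 9 of 9 genes, and replicate 1 the highest P5 *Ror2* mutant lung for 7 of 9. In the *Vangl2* mutants replicate 1 was highest for 5 of 9 at P2, *Abca1*, *Apoe*, *Mylip*, *Srebf1* and *Scd2*, and replicate 3 for 5 of 9 at P5, *Abca1*, *Abcg1*, *Apoe*, *Mylip* and *Nr1h3*. The share of all genes for which each of these lungs was the highest mutant was not counted. These counts therefore do not show a trait of the 9 genes. Covariation was measured as the correlation of log2 values after subtraction of the mean of each group, over 24 lungs (23 for *Apoe*), with a permutation test that reassigned lungs within groups. Of 36 pairs, 35 had a Pearson r above 0, with a median of 0.44, and 8 had a Benjamini-Hochberg adjusted permutation p under 0.05.

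*Abca1* and *Mylip* were the most closely related pair, with r = 0.89 and Spearman's rho = 0.90 (permutation p = 4e-05 and 1e-05, adjusted 0.00144 and 0.00036). The second of these is the smallest p that 100000 permutations can give. The relation held in the control lungs (r = 0.80 over 12), in the mutant lungs (r = 0.92 over 12), within each of the 4 tables (r = 0.81 to 0.98 over 6) and without the 2 lungs farthest from the median of *Abca1* (r = 0.88). *Apoe* and *Mylip* followed (r = 0.86, rho = 0.79, permutation p = 0.00045 and 0.00046, adjusted 0.0081 and 0.00828, r = 0.79 without the farthest 2), with r = 0.51 over the control lungs, 0.97 over the mutant lungs and 0.51 to 0.98 within tables. *Abca1* and *Apoe* were related less closely (r = 0.71, rho = 0.72, permutation p = 0.00172 and 0.00232, adjusted 0.0155 and 0.0278, r = 0.67 without the farthest 2), with r = 0.26 over controls and 0.84 over mutants. *Scd1* and *Fasn* formed another pair (r = 0.71, rho = 0.60, permutation p = 0.00295 and 0.0164, adjusted 0.0212 and 0.081, r = 0.60 without the farthest 2). It was near 0 in the P2 *Vangl2* table (r = 0.08 over 6) and 0.65 to 0.97 in the other tables. *Abca1* and *Fasn*, which both carry the promoter element shown above, had a pooled r of 0.01 (rho = 0.06, permutation p = 0.965 and 0.823, adjusted 0.965 and 0.847, r = -0.07 without the farthest 2). That pooled value joins comparisons of opposite sign, with r = -0.23 and -0.69 for *Vangl2* at P2 and P5 and 0.68 and 0.91 for *Ror2*. All these values share the size factor of the lung.

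**Figure D3:**
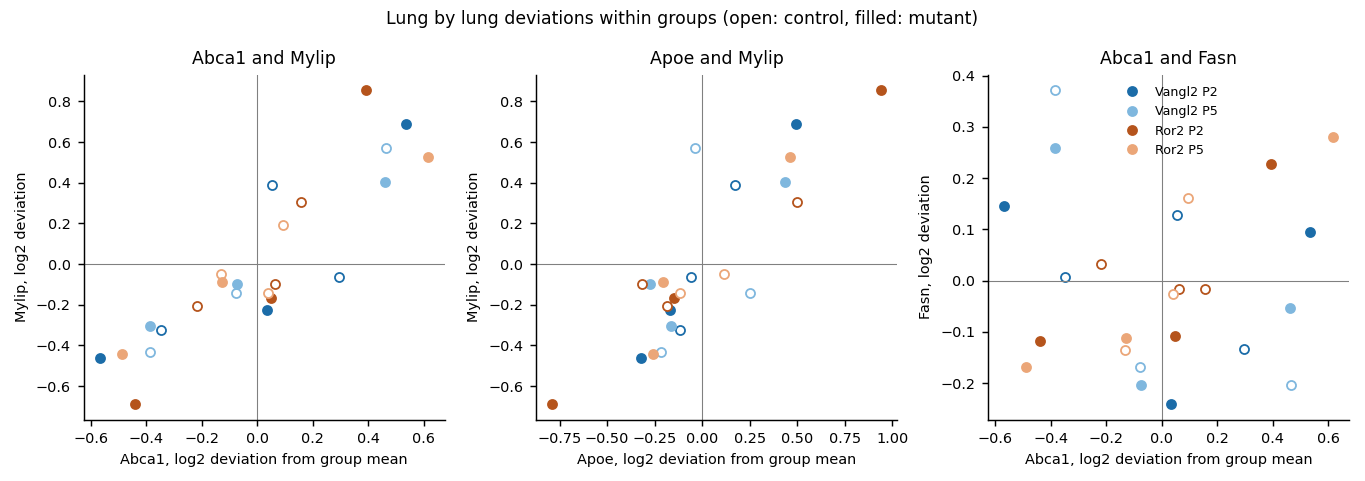
Deviation of each lung from its group mean on the log2(normalized count + 1) scale for *Abca1* and *Mylip*, *Apoe* and *Mylip*, and *Abca1* and *Fasn*. Open points are control lungs, filled points mutant lungs, and color gives the comparison. The points of the first panel lie along a rising line (r = 0.89 over 24 lungs), and those of the third are scattered (r = 0.01).

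Of 12657 genes with a mean of at least 50 normalized counts in each table, those among the 5 most like each of the 9 genes by the same within-group r are given as a description. Those like *Abca1* included *Rab3gap1* (r = 0.90), *Col4a3bp* (a ceramide transporter), *Ccpg1* and *Mylip* (r = 0.89). Those most like *Mylip* were *Ccpg1* (r = 0.95), *Zrsr1*, *Mxi1*, *Fgfbp1* and *Rnf145* (r = 0.89), the last of which is itself an LXR target gene. *Fgfbp1* was also among the 5 most like *Apoe* (r = 0.91), with *Dcaf11* (r = 0.93), *Hsd17b11* (an enzyme of lipid droplets), *Slc35g1* and *Igfbp6*. *Srebf1* was most like *Selenbp1* (r = 0.94), *Tpst2*, *Vps11*, *1300018J18Rik* and *Sgsm3*, and *Fasn* most like *Lsr*, a lipoprotein receptor (r = 0.88), *Nrbf2*, *Dnajc30*, *Isyna1* and *Gm2382*. *Nr1h3* was most like *Rnf5* (r = 0.85), *Abcg1* most like *Hspbap1* (r = 0.87), *Scd1* most like *Ptpre* (r = 0.84) and *Scd2* most like *Fmo5* (r = 0.92).

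The other genes of the pathway did not share 1 direction. Among 9 makers and movers of LXR ligands and sterols, 1 rose in the P2 *Vangl2* mutants. This was *Npc2*, which carries cholesterol out of lysosomes, with controls at 12921, 10906 and 10239 and mutants at 30691, 21816 and 20326 (log2 fold change 1.08, adjusted p = 0.032). At P5 1 of 9 rose, *Nceh1*, which hydrolyses cholesterol esters, with controls at 849, 865 and 833 and mutants at 1553, 1530.0 and 1457 (0.83, adjusted p = 0.0274). *Npc2* lay above its controls in every P5 *Vangl2* mutant lung without passing (0.88, adjusted p = 0.0881). In the *Ror2* mutants 0 of 9 passed at either age, and *Npc2* lay above its controls in every mutant lung at P2 (0.62, adjusted p = 0.203) and at P5 (0.29, adjusted p = 0.276). *Lipa*, the lysosomal lipase, lay below its controls in the P5 *Ror2* mutants (-0.33, adjusted p = 0.163).

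Among 14 other LXR target genes, of which 12 or 13 were tested in a comparison, 1 rose at P2 in *Vangl2* mutants and 0 passed elsewhere. The 1 was *Smpdl3a*, a sterol-induced phosphodiesterase, with controls at 1577, 1387 and 1385 and mutants at 2341, 2147 and 2054 (0.59, adjusted p = 0.0326). *Rnf145* lay above its controls in every mutant lung of 3 comparisons, by 0.50 for *Vangl2* at P2 (adjusted p = 0.0633), 0.47 for *Ror2* at P2 (adjusted p = 0.206) and 0.17 for *Ror2* at P5 (adjusted p = 0.24). *Abcg5*, an intestinal and hepatic sterol exporter, had few counts here and lay lower, with 12.4, 12.9 and 5.59 in P2 *Ror2* controls and 2.25, 1.9 and 2.1 in mutants (-1.80, adjusted p = 0.203). *Apoc1*, an apolipoprotein gene next to *Apoe*, lay above its controls in every P2 *Vangl2* mutant lung (0.81, adjusted p = 0.0793). It overlapped between groups in the P5 *Vangl2* comparison (0.78, adjusted p = 0.354) and for *Ror2* at P2 and P5 (0.18 and 0.05, adjusted p = 0.8202 and 0.9685). The list's median log2 fold change was 0.42, 0.04, 0.07 and 0.00 for *Vangl2* at P2 and P5 and *Ror2* at P2 and P5.

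The 16 further SREBP-1 lipogenic genes had medians near that of all genes, at 0.01, 0.01, -0.08 and -0.14 in the same order. Of these, 1 fell in the P2 *Vangl2* mutants and 0 rose in any comparison. That gene was *Fads1*, the delta-5 desaturase of polyunsaturated fatty acids, with controls at 2246, 2579 and 2491 and mutants at 1792, 1609.9 and 1808 (-0.49, adjusted p = 0.0401). In the other comparisons *Fads1* lay below its controls in every mutant lung without passing, by -0.59 for *Vangl2* at P5 (adjusted p = 0.166) and by -0.40 and -0.34 for *Ror2* at P2 and P5 (adjusted p = 0.206 and 0.175). *Elovl6*, which elongates palmitate, also lay below its controls in every mutant lung of all 4 comparisons, by -0.75 and -0.61 for *Vangl2* (adjusted p = 0.074 and 0.196) and -0.74 at both ages for *Ror2* (adjusted p = 0.203 and 0.142). *Fads2*, the delta-6 desaturase, lay below its controls in the P5 *Vangl2* mutants (-0.83, adjusted p = 0.121). *Scd4*, another desaturase gene, overlapped between groups in the *Ror2* comparisons (0.83 and 1.29, adjusted p = 0.302 and 0.239). With the replicate block at P5 for *Vangl2* (8.95% of all genes called), 3 of the 16 passed, all lower, in contrast to *Fasn*, which passed higher. In the 5 genes of SREBP processing 0 passed, and *Insig1*, which retains SREBPs in the endoplasmic reticulum, lay below its controls in the *Ror2* mutants at P2 (-0.48, adjusted p = 0.203) and P5 (-0.47, adjusted p = 0.179).

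Genes of cholesterol synthesis, which SREBP-2 drives when sterol is scarce, lay on the other side of 0 from *Abca1*, *Apoe* and *Mylip*. Their median log2 fold change over 22 genes tested was -0.19 for *Vangl2* at P2, -0.33 for *Vangl2* at P5, -0.41 for *Ror2* at P2 and -0.27 for *Ror2* at P5. Only *Dhcr7*, which makes cholesterol from 7-dehydrocholesterol, passed the test, and it fell in the P2 *Vangl2* mutants, with controls at 640.4, 697 and 593 and mutants at 274, 354 and 404 (-0.92, adjusted p = 0.0326). All mutant lungs were under all controls in 6 of 22 genes for *Vangl2* at P2 (14.9% of all genes), 5 of 22 at P5 (12.5%), 14 of 22 for *Ror2* at P2 (12.2%) and 9 of 22 at P5 (14.4%). In the P2 *Ror2* mutants these included *Sqle*, squalene epoxidase (-0.66, adjusted p = 0.203), *Idi1* (-0.84, adjusted p = 0.203) and *Hsd17b7* (-0.88, adjusted p = 0.203). At P5, *Stard4*, a cholesterol carrier, lay below its controls in every *Vangl2* mutant lung (-0.67, adjusted p = 0.174), and *Cyp51*, lanosterol demethylase, in every *Ror2* mutant lung (-0.50, adjusted p = 0.158). Limma called none of the 22 genes in the P2 *Ror2* comparison, as it called no gene at all, whereas DESeq2 called 9 of them, all lower, against 5.76% of all genes.

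**Figure D4:**
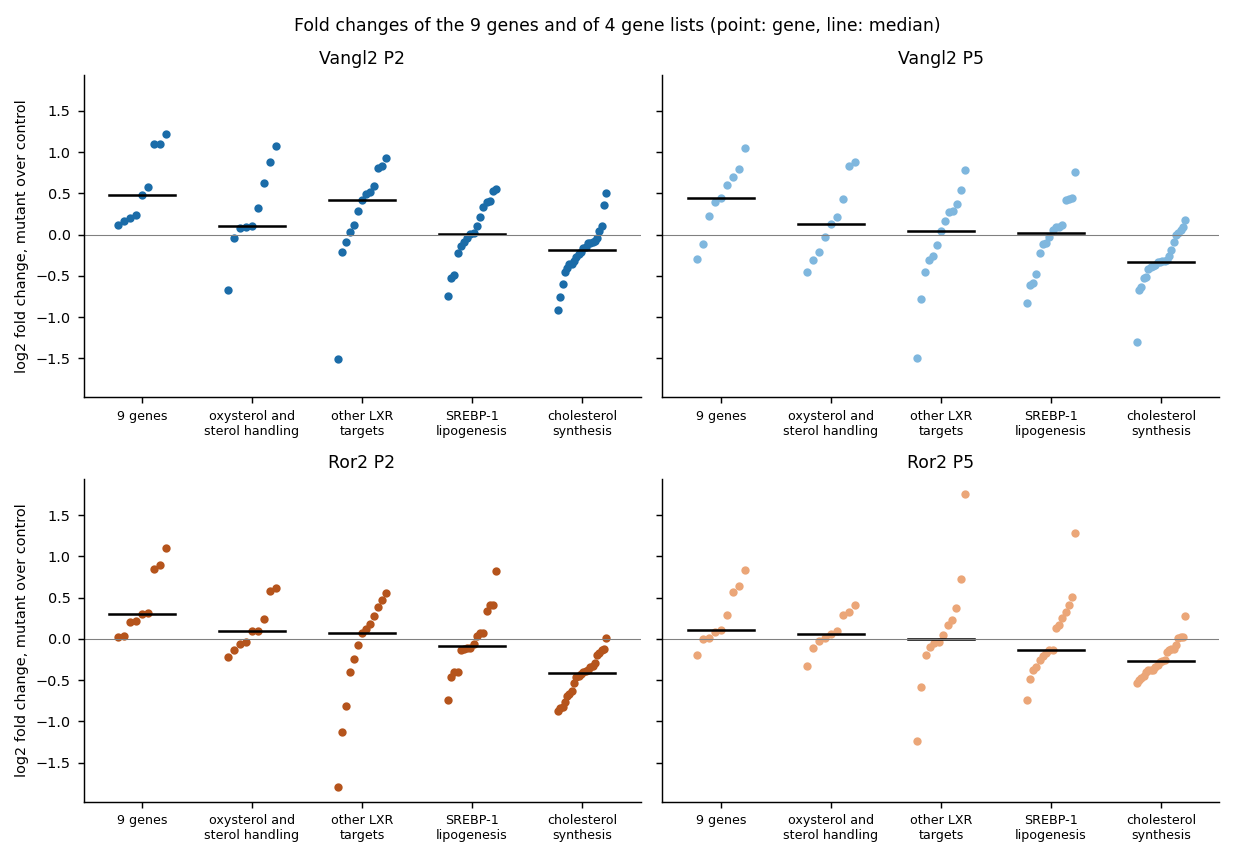
Log2 fold change, mutant over control, of the 9 genes and of 4 gene lists in each comparison, with 1 point per gene tested and lines at list medians. The cholesterol synthesis genes have a median below 0 in all 4 panels (-0.19 to -0.41), and the 9 genes a median above 0 (0.11 to 0.48).

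Among 12 PPAR and lipid droplet genes 0 passed in any comparison, and the list's medians were 0.36 and 0.43 for *Vangl2* at P2 and P5 and 0.07 and 0.15 for *Ror2*. *Plin4*, a lipid droplet coat gene, lay above its controls in the P2 *Vangl2* mutants (1.48, adjusted p = 0.21). *Cebpa*, a transcription factor of alveolar type II cells and adipocytes, lay above them in both sets of P2 mutants, by 0.64 for *Vangl2* (adjusted p = 0.0546) and 0.53 for *Ror2* (adjusted p = 0.203). *Fabp4*, a fatty acid binding protein gene, overlapped between groups at P2 for *Vangl2* (1.05, adjusted p = 0.189) and *Ror2* (-0.67, adjusted p = 0.427). Of 6 lipoprotein receptor genes 0 passed. With the replicate block at P5 for *Vangl2* (8.95% of all genes called), 3 of 12 PPAR and droplet genes and 2 of 9 sterol handling genes passed higher. In that fit 1 of 6 lipoprotein receptor genes and 2 of 22 cholesterol synthesis genes passed lower, and 1 of 13 other LXR target genes in each direction. *Scarb1*, the HDL receptor gene, lay below its controls in every P5 mutant lung, by -0.44 for *Vangl2* (adjusted p = 0.208) and -0.29 for *Ror2* (adjusted p = 0.147). *Cd36*, a fatty acid transporter of capillaries and macrophages, lay above its controls in every P2 mutant lung, by 0.50 for *Vangl2* (adjusted p = 0.0779) and 0.47 for *Ror2* (adjusted p = 0.234).

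Markers of several cell types differed in the same *Vangl2* lungs. In the P2 *Vangl2* mutants 7 of 8 neutrophil markers rose (3.59% of all genes called), among them *Csf3r* (1.00, adjusted p = 0.0289), *S100a8* (1.51, adjusted p = 0.0319), *Ngp* (1.24, adjusted p = 0.0326) and *Cxcr2* (1.51, adjusted p = 0.0329). Their summed level was 3704 to 5708 normalized counts in controls and 10566.5, 11693 and 14250.5 in mutants. At P5 4 of 8 rose (0.563% of all genes called), *Retnlg* (2.68, adjusted p = 0.0202), *Cxcr2* (1.90), *S100a8* (2.18) and *S100a9* (2.14), and the sums were 3746 to 5198 in controls and 11049 to 25471 in mutants. Of 11 macrophage markers in the tables, 1 rose at P2 (*C1qa*, 0.59, adjusted p = 0.0498) and 0 passed at P5, when 10 of 11 lay above their controls in every mutant lung (13.2% of all genes). The macrophage sums at P2 and P5 were 31183 to 37683 and 17295 to 27816 in controls and 41318.5 to 48546 and 40228 to 52801 in mutants. Of 10 alveolar type II markers 3 rose at P2, *Sftpd* (1.55, adjusted p = 0.0248), *Sftpa1* (1.89, adjusted p = 0.0329) and *Slc34a2* (0.63, adjusted p = 0.0394). The log2 fold change was above 0 in 8 of the 10, and below it in *Sftpc* (-0.05, adjusted p = 0.927) and *Etv5* (-0.20, adjusted p = 0.3565). Of 8 alveolar type I markers 1 rose at P2, *Hopx* (0.75, adjusted p = 0.0436). With the replicate block at P5 (8.95% of all genes called), 6 of 11 macrophage, 8 of 8 neutrophil, 2 of 10 alveolar type II and 1 of 8 alveolar type I markers passed, all higher. In that fit 2 of 8 lipofibroblast, 2 of 8 endothelial and 1 of 4 erythroid markers passed lower. The part of the cell type markers in the differences of *Apoe*, *Abca1*, *Mylip* and *Fasn* was not tested.

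In the *Ror2* comparisons none of the marker lists held a gene that passed by limma, which called 0% of all genes at P2 and 0.18% at P5. At P2, 4 of 10 alveolar type II and 5 of 8 alveolar type I markers were higher at an unadjusted p under 0.05 (19.3% of all genes in either direction). Of the 10 type II markers 8 had a log2 fold change above 0, and *Sftpc* (-0.13) and *Etv5* (-0.17) lay below it. There the neutrophil sums were 5547 to 28367 in P2 controls and 6893 to 8529 in P2 mutants, and the macrophage sums 24327 to 39932 and 31043 to 44949. *Lyz2* makes up most of the macrophage sum, and only 2 of the 11 macrophage markers had a log2 fold change above 0 (median -0.08), with *Mrc1* (-0.46), *Cd68* (-0.51) and *C1qb* (-0.61) below their controls in every mutant lung and *Mertk* above them (0.89). The P2 alveolar type I sums were 83402 to 93934.5 in controls and 92730.1, 120929 and 149668 in mutants, of which the highest was replicate 3, the lung highest in all 9 genes. Replicate 3 also held the highest mutant sums of alveolar type II (315531), macrophage (44949.4) and endothelial markers (77733.6). Its neutrophil sum was about that of replicate 1 (8528.5 and 8527.8). Replicate 2 held the highest mutant sums of lipofibroblast, adipocyte and erythroid markers. At P5 the sums of replicate 1, the lung highest in 7 of the 9 genes, were the highest of the mutants for macrophage (34729), neutrophil (4760.3) and alveolar type I markers (108541). They were also the highest for alveolar type II (244221) and adipocyte markers (180.8), but not for lipofibroblast, endothelial or erythroid markers. Adipocyte markers summed to 82.4 to 457 in the tables other than that of P5 *Vangl2*, with *Lep* at 0 in all 6 lungs of the P2 *Vangl2* table. In the P5 *Vangl2* table control replicate 3 held a sum of 4183 against 119.5 in the lowest control and 149 to 839 in the mutants. Without that lung *Apoe* was 1.18 and *Fasn* 0.52 on the log2 scale. Lipofibroblast and endothelial markers lay lower in the P5 *Vangl2* mutants (medians -0.66 and -0.53) and 0 of 8 passed in either list, and of the erythroid markers 1 of 4 fell at P2 in *Vangl2* mutants (*Alas2*, -1.51, adjusted p = 0.0326). The part of these markers was not tested either.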

How the data were processed

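Whole left lung lobes were profiled by RNA sequencing, and the authors deposited 1 table per comparison of 6 lungs. Its signal values are reads per gene divided by a DESeq2 size factor for each lung, per the labels and the values, on genome build mm10 according to the submitters' processing notes. The aligner and counter are not given in the sources used here. Columns of fold changes and p-values from the authors' own comparisons were not used. Multiples of 1 read were whole (within 0.02) in all 24 lungs, and reads were taken as recovered in 21 of them. The other 3 lungs, all P5 controls, have size factors near 1, so reads were not recovered at P5.

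Groups were taken from sample titles. For P5 *Vangl2* and P2 *Ror2* mutants, the genotype field names the gene that the title does not, and the title was used. Nothing states that the lungs of a group came from separate litters, so p-values measure the spread between these lungs. In control replicate 1 of the P5 *Ror2* comparison, 8285 of 23420 genes were set to missing, which covers chromosomes 5 to 9, X and Y and 154 names with no chromosome, because 3619 of 3619 well expressed genes of chromosomes 6 to 9 and X are listed at 0 there.

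Log2(normalized count + 1) was fitted with limma 3.58.1 in R 4.3.3 (trended empirical Bayes) for genes with at least 1 in at least 3 of 6 lungs, and p-values were adjusted by Benjamini-Hochberg across every gene that passed this filter. The fits were tested on simulated data. An exact permutation test of 3 against 3 lungs cannot go below 0.1. On recovered P2 reads, edgeR 4.0.16 and DESeq2 1.42.0 were run as alternatives, with other pseudocounts, filters and scalings, a replicate block and the removal of each lung. Same-numbered lungs deviated together only at P5 for *Vangl2*, where each of 3 pairs correlated above 0.1 (r = 0.384, 0.34 and 0.241).

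The 9 genes and all gene lists were chosen with earlier results of these data known. List genes were named by rule, as up to 4 per list and comparison with the lowest p among those that passed or else the 2 with the largest change. Of the genes this rule gives, only part is printed, and some results are not reported here. *Nr1h2*, *Rnf145*, *Sqle*, *Fads1*, *Elovl6*, *Cebpa*, *Npc2*, *Vldlr* and *Lrp8* in comparisons where the rule does not give them, and the pairs of genes described, were named after their values were seen. So were *Apoc1*, *Sftpc* and *Etv5* in comparisons where the rule does not give them. Of 14 macrophage markers, 11 matched by symbol.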

Additional observations from a re-analysis of the deposited data

How the results depend on the processing

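Of 701 values of the 9 genes under alternatives, 666 kept their direction and their side of the threshold, 5 lost significance, 15 gained it and 15 changed sign. The 701 include the differences between genotypes and between ages, under 19 alternatives each, for only the genes with the lowest unadjusted p in each contrast. None of those passed or changed sign, so they add to the values that kept their side. The number of the 9 genes that passed in the P2 *Vangl2* comparison was 1 (3.59% of all genes called). It became 2 with the replicate block (*Apoe* and *Mylip*), 0 with all 12 lungs of the age and 4 with DESeq2 (13% of all genes). When lungs were left out in turn it was 0 to 4. The 4 came without mutant replicate 3, in a fit whose share of all genes called is not reported here. At P5 for *Vangl2* the number of the 9 genes that passed was 0 (0.563% of all genes). It became 2 with the block (8.95% of all genes) and 1 with all 12 lungs. For *Ror2* at P2 it was 0 (0% of all genes), and became 2 with DESeq2 (5.76% of all genes) and 0 to 2 without a lung, the 2 without mutant replicate 2. At P5 for *Ror2* it was 0 to 1 without a lung, the 1 being *Mylip* without mutant replicate 3 (adjusted p by limma 0.0386). The block changed no other call of the 9 genes. Calls over all genes varied too when lungs were left out, as given in the next paragraph. The share of all genes called with the P2 block is not reported here. Same-numbered lungs did not deviate together elsewhere by the criterion used (r = -0.00999 to 0.0895 at P2 for *Vangl2* and -0.114 to 0.0557 at P5 for *Ror2*), and at P2 for *Ror2* every lung matched best with its own number (r = 0.0346 to 0.206), which is a hint from the data only.

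Values that changed sign were small. For *Ror2* at P2, *Srebf1* became -0.0182 with equal sums and -0.00219 with equal upper quartiles, and *Scd2* became -0.0110 with equal sums. Without a lung the log2 fold changes ran from -0.0903 to 0.32 for *Scd2* (*Vangl2* at P2), from -0.10 to 0.14 for *Srebf1*, -0.00637 to 0.44 for *Scd1* and -0.0562 to 0.15 for *Scd2* (*Ror2* at P2), and from -0.0227 to 0.53 for *Abca1*, -0.0483 to 0.0769 for *Abcg1*, -0.0421 to 0.0531 for *Srebf1* and -0.0550 to 0.17 for *Fasn* (*Ror2* at P5). With control replicate 1 of the P5 *Ror2* table kept as deposited, *Apoe* was 4.57. Over all genes the calls at P2 for *Vangl2* ran from 1 to 2308 without a lung, 45 with all 12 lungs and 2001 with DESeq2. At P5 for *Vangl2* they ran from 0 to 53 without a lung, and were 1558 with the block, 981 with all 12 lungs and 193 with equal sums. For *Ror2* they were 849 at P2 without mutant replicate 2, and at P5 742 without mutant replicate 3, 1 with the block, 1 with control replicate 1 kept and 3 with all 12 lungs. The cause of these changes was not tested. Count models were not run at P5, where reads were not recovered.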
